A study of Mus musculus with 22 samples.

Results

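Imprinted genes are transcribed mainly from 1 parental allele, and 39 mouse genes known for it were followed across 22 microarrays of primordial germ cells (PGCs), their cultures, an embryonic germ cell line and embryonic stem cells. The genes were taken by name from a list of known imprinted genes, and their probes are all those that carry such a name on the array, which gave 83 of 41174 probes and 39 of 28101 named genes. Of the 39, 19 are known as paternally expressed, 19 as maternally expressed, and Gnas gives both kinds of transcript. The arrays measure RNA from both alleles together, so a level says nothing of which allele made it.

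The study followed mouse PGCs of stage E11.5 as they turn into pluripotent embryonic germ cells (EGCs) in culture, with basic fibroblast growth factor (bFGF) and the cytokine LIF. Its 22 samples are 1 array each. On the PGC side they are the uncultured PGCs, a culture with bFGF alone at day 1, cultures with bFGF plus 2i and A83-01 at days 2, 3 and 6, a culture labelled day 10 with no additions named, and the EGC line, all sorted for the surface antigen SSEA-1. At day 2 there were 6 further cultures, all with bFGF: with the MEK inhibitor PD325901 at 1 µM, with the GSK3 inhibitor CHIR99021 at 3 µM, with A83-01 at 250 nM, with 4-hydroxytamoxifen (4OHT) at 100 nM, with 2i, A83-01 and 4OHT together, and with bFGF alone. The name 2i stands for both kinase inhibitors, A83-01 blocks the TGF-beta type I receptors, and 4OHT was used to activate the kinase AKT, per the labels. The blastocyst-derived embryonic stem cell (ESC) side has 9 arrays: an SSEA-1-sorted ESC line, EBRTcH3 cells forced to express Blimp-1, Dnd, Nanos2, Nanos3, Prdm14 or Vasa, unmodified EBRTcH3 cells, and EBRTcH3 cells with a GFP control. The cells with a construct were sorted for GFP, and the Blimp-1 and GFP constructs were driven by the EF1a promoter and sampled at day 2. The sample titled Dnd has a source name that reads End. All EBRTcH3 arrays come from 1 parental line, so they show the spread of 1 line under different constructs, and the EGC line and the ESC line are 1 line each.

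A methyl mark set in the egg or in the sperm silences or frees neighbouring imprinted genes, and it is kept through development by DNA methyltransferases and by the zinc finger protein ZFP57 with its partner TRIM28. PGCs erase these marks around the stage at which they were taken here, and EGCs derived from them are known to differ from ESCs in the methylation of imprinted regions. Many paternally expressed genes promote growth of the fetus and placenta, and many maternally expressed genes restrain it.

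ZFP57 binds the 6-base sequence TGCCGC when it is methylated. The RefSeq promoter windows that follow (GRCm38.p6, 250 bases before to 50 bases after a transcription start) are shown because they belong to 5 genes on which the results turn and hold that sequence. Capitals mark TGCCGC or its reverse complement GCGGCA. They lie at chr10:13090582-13090881 (plus strand) for Plagl1, chr2:157559828-157560127 (plus) for Nnat, chr6:30737800-30738099 (plus) for Mest, chr12:109540746-109541045 (plus) for Meg3 and chr7:60005150-60005449 (minus) for Snrpn.
Plagl1: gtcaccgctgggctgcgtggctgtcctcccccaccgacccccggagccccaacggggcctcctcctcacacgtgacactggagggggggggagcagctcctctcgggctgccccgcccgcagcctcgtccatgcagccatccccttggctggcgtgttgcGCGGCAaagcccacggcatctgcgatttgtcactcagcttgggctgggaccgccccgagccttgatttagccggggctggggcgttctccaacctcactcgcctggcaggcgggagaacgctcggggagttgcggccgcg
Nnat: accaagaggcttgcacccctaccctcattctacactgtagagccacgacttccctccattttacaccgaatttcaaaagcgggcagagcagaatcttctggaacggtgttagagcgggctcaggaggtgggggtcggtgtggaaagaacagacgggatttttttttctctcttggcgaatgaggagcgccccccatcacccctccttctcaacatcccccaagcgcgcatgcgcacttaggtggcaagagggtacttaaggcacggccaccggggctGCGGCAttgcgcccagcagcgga
Mest: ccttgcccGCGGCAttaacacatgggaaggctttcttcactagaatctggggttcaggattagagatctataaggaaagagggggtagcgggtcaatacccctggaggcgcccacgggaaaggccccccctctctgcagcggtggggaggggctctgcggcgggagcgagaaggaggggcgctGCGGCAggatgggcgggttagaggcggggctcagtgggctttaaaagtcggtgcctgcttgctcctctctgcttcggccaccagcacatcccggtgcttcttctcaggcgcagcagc
Meg3: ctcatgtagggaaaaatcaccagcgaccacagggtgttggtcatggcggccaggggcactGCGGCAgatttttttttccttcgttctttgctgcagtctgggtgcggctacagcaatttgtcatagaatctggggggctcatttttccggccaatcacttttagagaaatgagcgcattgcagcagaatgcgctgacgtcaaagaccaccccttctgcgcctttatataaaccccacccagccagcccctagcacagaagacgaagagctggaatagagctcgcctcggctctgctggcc
Snrpn: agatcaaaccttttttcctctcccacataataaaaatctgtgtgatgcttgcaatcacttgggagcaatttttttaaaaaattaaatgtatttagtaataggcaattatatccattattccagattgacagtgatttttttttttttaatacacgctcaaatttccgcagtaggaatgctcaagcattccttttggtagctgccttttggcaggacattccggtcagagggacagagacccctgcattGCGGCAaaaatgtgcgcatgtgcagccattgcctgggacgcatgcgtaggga
Of the 39 genes, 34 had a promoter window by symbol. TGCCGC, searched on both strands, was found in windows of 12 of these 34 genes (35.3%), against 3527 of 27025 genes in the whole table (13.1%). By window the share was 13 of 55 (23.6%) against 3813 of 32851 (11.6%). Paternally expressed genes held it in 6 of 16 (37.5%) and maternally expressed genes in 6 of 17 (35.3%). The other genes with a match were Calcr, Copg2, Grb10, Igf2, Nap1l5, Osbpl5 and Zim1. The windows of imprinted genes were also richer in CG dinucleotides, with a median of 14 in 300 bases against 7 in all windows, and the motif itself holds a CG; windows matched for CG were not compared. The Plagl1 window held 26 CG, the Nnat and Mest windows 17 each, the Meg3 window 13 and the Snrpn window 7. A match is a description of the letters and not evidence of binding.

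The maternally expressed long noncoding RNAs Meg3 and Rian, which neighbour each other on chromosome 12, had among the largest differences below. The probes that stand for them are shown with their mm9 coordinates, chr12:110809678-110809737 for Meg3 and chr12:110899742-110899801 for Rian, both on the plus strand and with no capitals.
Meg3 probe: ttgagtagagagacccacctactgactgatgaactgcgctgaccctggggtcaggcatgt
Rian probe: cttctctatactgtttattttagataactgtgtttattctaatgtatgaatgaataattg

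A level here is a probe's processed intensity on the log2 scale, set relative to the 75th percentile of its own array, so that 0 is the brightness of that percentile and a step of 1 is a 2-fold change; levels of different genes come from different probes and are not set against each other. A gene with several probes is given by the one with the highest mean level. The 75th percentile intensities ran between 124 and 782, between 44.3% and 64.7% of probes were well above background by the scanner's own flag, and no probe was saturated. The arrays lie on 10 slides, and no slide holds arrays of both the PGC cultures and the ESC side. Of the 39 genes, 25 were well above background on all 22 arrays, 13 on some and Slc22a3 on none. Zim1 passed on 1 array, Rasgrf1 on 2 and Nap1l5 on 5. Fibroblast markers (12 genes, summed scaled intensity) were at 42.1 to 307 in the 9 cultures without 4OHT. They were at 7.51 and 11 in the 2 cultures with 4OHT and at 2.3 to 12.2 on the ESC arrays. The sum for this other cell type was thus raised in 9 of the 11 sorted cultures. Of the list, Lum, Pdgfra, Pdgfrb and Prrx1 overlapped between these 9 cultures and the ESC arrays. Thy1 went the other way at days 1 to 3, at -5.08 to -4.18 without 4OHT against -0.53 to 2.44 on the ESC arrays. Markers of pluripotent cells, 6 of 7 found, summed to 23.2 to 186 in cultures and 94.1 to 319 on ESC arrays. The sum of PGC markers was highest in the uncultured PGCs, at 105, as was that of blood markers, at 43.8, against 0.273 to 3.14 in cultures. Of the PGC list Dppa3 and Dnd1 were highest there, as was the median of the list, at 2.03. Dazl, Ddx4, Kit, Tfap2c, Prdm1 and Nanos3 were each higher on another array, Nanos3 on the one where it was forced. The blood sum followed the globin genes Hbb-y, Hba-x and Hba-a1. Laptm5 was at -5.54 in PGCs against 2.42 in the EGC line.

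**Figure D1:**
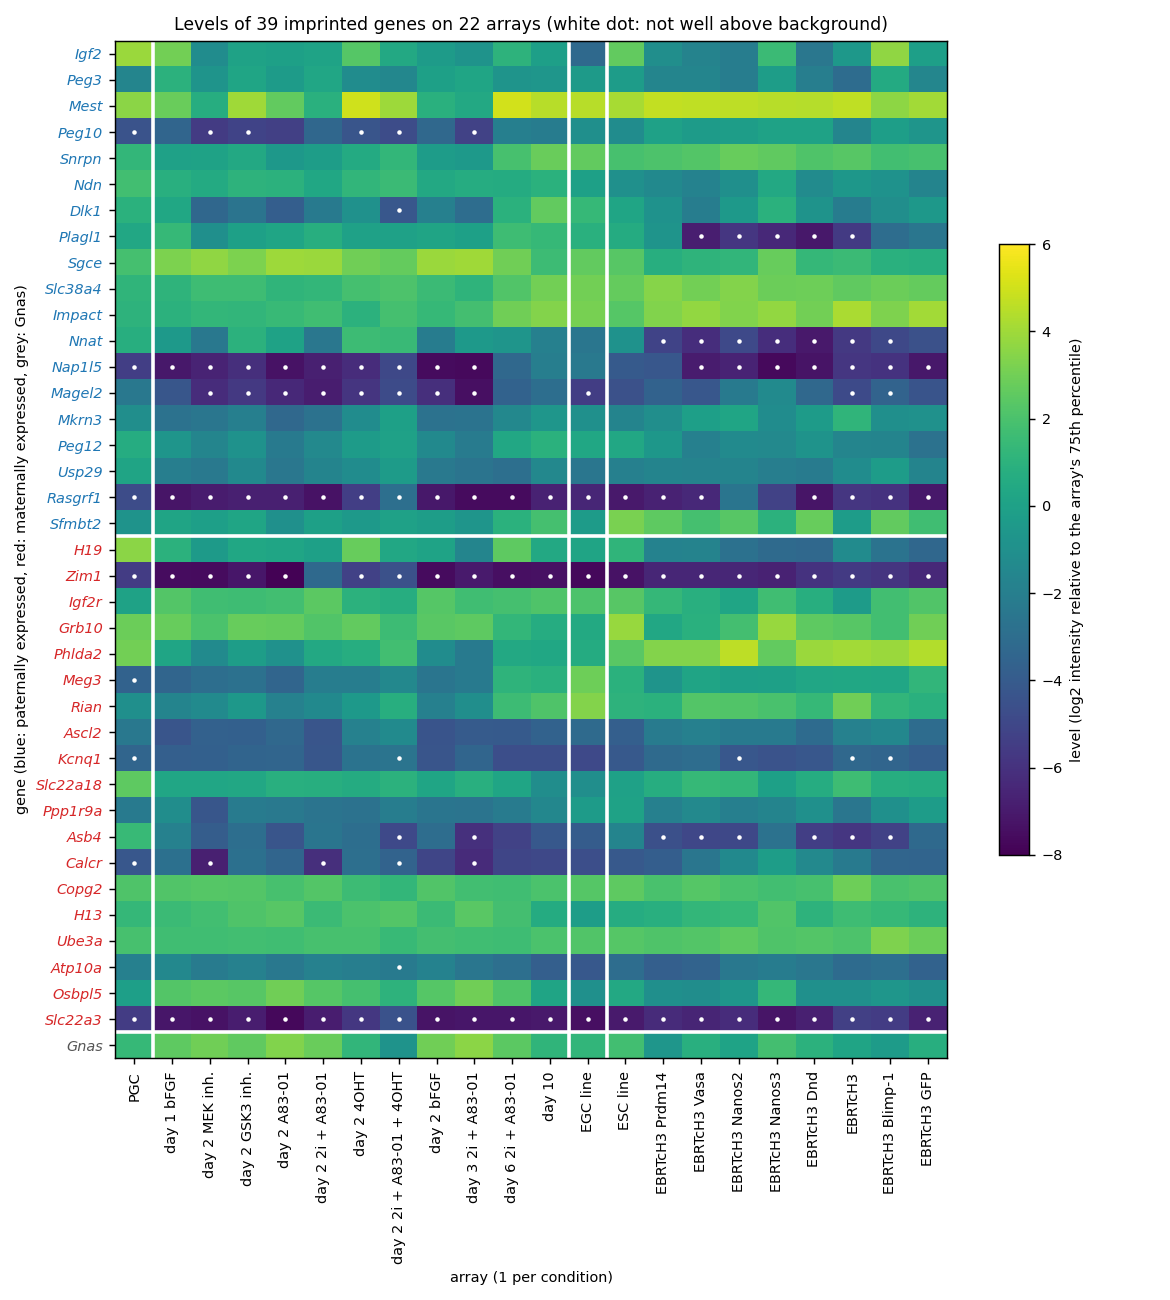
Levels of the 39 imprinted genes (rows, paternally expressed above, maternally expressed below them, Gnas last) on the 22 arrays (columns), as log2 intensity relative to the array's 75th percentile; white dots mark spots not well above background. Mest is bright on the ESC arrays and at days 6 and 10 but dimmer at day 3, and Plagl1 and Nnat are dark on most EBRTcH3 arrays.

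Across the 11 PGC cultures and the 9 ESC arrays, 23 of the 38 imprinted genes tested differed, 8 higher and 15 lower in the cultures. With slide as a random block 15 of the 23 calls held, and Mest, Magel2, Mkrn3, Gnas, Ascl2, Ppp1r9a, Calcr and Atp10a lost theirs (adjusted p between 0.0618 and 0.249, limma), so their p-values given here hold without the block alone. Genes lower in the cultures were led by Phlda2, which restrains growth of the placenta, and Peg10, a retrotransposon-derived gene needed to form it. The noncoding RNAs Meg3 and Rian were also lower. The genes with the largest difference in favour of the cultures were the zinc finger gene Plagl1 and Nnat, which encodes the membrane protein neuronatin. In bulk RNA, fewer cells of a type and less RNA per cell cannot be told apart. The test was limma's moderated test with Benjamini-Hochberg adjustment over 21827 genes, of which 43% were called, 16.1% higher and 26.9% lower, so calls were frequent for genes at large. The median log2 difference was -0.26 for the imprinted genes and -0.34 for all genes. Of 19 paternally expressed genes 4 rose and 8 fell (median -0.57), and of 18 maternally expressed genes 3 rose and 7 fell (median -0.22), with Gnas the eighth to rise. Quantile normalization moved the median of all genes to -0.13 and the split over all genes to 4290 higher and 4701 lower, against 3516 higher and 5879 lower here.

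Among genes that act on growth of the embryo and placenta, Phlda2 lay between -2.30 and 1.77 in the cultures (median 0.21), against 2.43 to 4.58 on the ESC arrays (median 3.91). Peg10 lay between -5.57 and -1.98 in the cultures (median -4.29), where 6 of 11 arrays measured it above background, against -1.61 to 0.08 on the ESC arrays (median -0.20). For both, every culture was below every ESC array. The log2 differences were -3.81 (SE 0.42, adjusted p = 6.88e-07) for Phlda2 and -3.60 (SE 0.45, adjusted p = 2.59e-06) for Peg10, by limma. Non-overlap of the 2 sides in either direction was found for 4.55% of all genes and for 3 imprinted genes, the third being Ube3a, a ubiquitin ligase gene, at 1.46 to 2.02 in the cultures against 2.11 to 3.27 on the ESC arrays. H19, the maternally expressed noncoding RNA beside Igf2, lay between -1.61 and 2.74 in the cultures (median 0.34), against -3.34 to 1.17 on the ESC arrays (median -2.67), a difference of 2.61 (SE 0.56, adjusted p = 0.000772, limma). The sides overlapped through the ESC line, whose 1.17 was above the other 8 ESC arrays, and through day 3, whose -1.61 was below unmodified EBRTcH3 at -1.24. Igf2 itself, the fetal growth factor, spread from -1.19 to 3.04 in the cultures (median 0.05) and from -2.46 to 3.69 on the ESC arrays (median -0.56), and its difference of 0.43 (SE 0.73) did not pass (adjusted p = 0.658, limma). Ascl2, a transcription factor of trophoblast, lay between -4.38 and -1.32 in the cultures, against -3.78 to -1.50 on the ESC arrays, and differed by -1.05 (SE 0.39, adjusted p = 0.0321, limma).

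In the Dlk1-Meg3 cluster of chromosome 12, Meg3 lay between -3.44 and 1.13 in the cultures (median -2.28), against -0.76 to 1.22 on the ESC arrays (median 0.26). Rian lay between -1.88 and 2.15 in the cultures (median -1.06), against 0.91 to 2.97 on the ESC arrays (median 1.37). The 2 sides overlapped through days 6 and 10, whose levels reached those of the ESC arrays. The differences were -2.16 for each (SE 0.52 and adjusted p = 0.00209 for Meg3, adjusted p = 0.00129 for Rian, limma). Dlk1, the paternally expressed Notch-related ligand of the same cluster, ran from -4.19 to 2.61 in the cultures, against -2.12 to 0.96 on the ESC arrays, and its -0.89 (SE 0.73) did not pass (adjusted p = 0.331, limma). Among the 11 cultures, Meg3 and Rian correlated at r = 0.93, and among the 9 ESC arrays at r = -0.19; this describes arrays that share slides and times, and has no test.

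In the Snrpn cluster of chromosome 7, all 7 genes were tested. Snrpn, a splicing protein gene, lay between -0.55 and 2.81 in the cultures (median 0.09), against 1.78 to 2.77 on the ESC arrays (median 2.17). Mkrn3, a zinc finger ubiquitin ligase gene, lay between -3.28 and -0.02 in the cultures, against -1.71 to 1.15 on the ESC arrays. Magel2, which takes part in endosomal protein sorting, lay between -7.42 and -2.94 in the cultures, with 3 of 11 arrays above background, against -4.85 to -1.31 on the ESC arrays, with 7 of 9. These 3 and Ube3a were lower in the cultures, with differences of -1.70, -1.44, -1.93 and -0.66. Ndn, which encodes the growth suppressor necdin and lies in the same cluster, went the other way. It lay between 0.34 and 1.57 in the cultures (median 0.83), against -1.82 to 0.43 on the ESC arrays (median -1.01), and differed by 1.85 (SE 0.24, adjusted p = 4.41e-06, limma). The lipid flippase gene Atp10a was higher in the cultures by 0.71 (SE 0.27, adjusted p = 0.04, limma), and Peg12 did not pass, at 0.45 (SE 0.42, adjusted p = 0.395, limma). Snrpn and Mkrn3 correlated at r = 0.82 among the 11 cultures and at r = 0.52 among the 9 ESC arrays.

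In the Peg10-Sgce cluster of chromosome 6, Sgce, which encodes epsilon-sarcoglycan, was higher in the cultures. It lay between 1.59 and 3.98 in the cultures (median 3.24), against 0.75 to 2.74 on the ESC arrays (median 1.22), a difference of 1.88 (SE 0.32, adjusted p = 7.51e-05, limma). Calcr, the calcitonin receptor gene, lay between -6.77 and -2.82 in the cultures, with 7 of 11 arrays above background, against -4.10 to -0.18 on the ESC arrays. Ppp1r9a, which encodes neurabin, lay between -4.26 and -1.13 in the cultures, against -2.49 to 0.04 on the ESC arrays. Both fell, by 2.02 and 1.09 on the log2 scale, though the mean of Calcr's probes did not pass (-1.01, adjusted p = 0.0933, limma). Asb4, a ubiquitin ligase adaptor gene, did not pass, at 0.49 (SE 0.56, adjusted p = 0.503, limma). Peg10 and Sgce share a promoter region, and their levels correlated at r = -0.50 among the cultures and -0.18 among the ESC arrays.

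Plagl1, which encodes a growth-suppressing transcription factor, lay between -1.03 and 1.65 in the cultures (median 0.15), against -7.08 to 0.59 on the ESC arrays (median -5.64), of which 4 of 9 measured it above background. Nnat lay between -2.43 and 1.60 in the cultures (median -0.49), against -7.05 to -0.85 on the ESC arrays (median -5.17), with 2 of 9 above background. In both genes the ESC line was the brightest ESC array and overlapped the cultures. The differences were 4.55 (SE 0.83, adjusted p = 0.000163) for Plagl1 and 4.49 (SE 0.68, adjusted p = 2.63e-05) for Nnat, by limma, and they rest on ESC arrays at background. The second Plagl1 probe, well above background on 10 of the 22 arrays, gave a difference of 1.65 in the same direction. Osbpl5, a lipid transfer protein gene, lay between 0.20 and 2.99 in the cultures, against -1.13 to 1.32 on the ESC arrays, and was higher by 2.61 (SE 0.36, adjusted p = 8.04e-06, limma). Gnas, which encodes the stimulatory G protein alpha subunit, lay between -0.83 and 3.57 in the cultures, against -0.65 to 1.84 on the ESC arrays, and was higher by 1.63 (SE 0.47, adjusted p = 0.00818, limma). Gnas has 8 probes, only 2 of them above background on all 22 arrays, and with their mean the difference was 0.07 (adjusted p = 0.78, limma).

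The other genes that fell code for a transporter, a translation regulator, a Polycomb-related protein and a hydrolase-like protein. Slc38a4, an amino acid transporter gene, lay between 1.09 and 3.03 in the cultures, against 2.59 to 3.43 on the ESC arrays, with a difference of -1.24. Impact, a regulator of translation, lay between 0.99 and 3.39 in the cultures, against 2.31 to 4.24 on the ESC arrays, with a difference of -1.72. Sfmbt2, the Polycomb-related gene, lay between -0.95 and 1.85 in the cultures, against -0.25 to 3.20 on the ESC arrays, with a difference of -1.93. All 3 overlapped between the sides. Mest, the hydrolase-like gene of fetal growth, ran from 0.43 to 5.07 in the cultures (median 2.79), against 3.60 to 4.71 on the ESC arrays (median 4.49), and differed by -1.57 (SE 0.58, adjusted p = 0.0337, limma). Its cultures spread over more than the ESC arrays did: day 3 and the day 2 cultures with bFGF alone, with the MEK inhibitor or with 2i and A83-01 were low, and day 6, day 10 and the cultures with 4OHT were high. The 15 genes that did not pass were Igf2, Peg3, Dlk1, Zim1, Igf2r, Grb10, Nap1l5, Peg12, Usp29, Kcnq1, Slc22a18, Rasgrf1, Asb4, Copg2 and H13, of which Peg3 came closest, at 0.99 (SE 0.40, adjusted p = 0.0505, limma).

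Without the 6 arrays of forced germ cell genes 9 held. The sum of fibroblast markers moved with the comparison of cultures and ESC arrays, as did that of extraembryonic endoderm markers. The latter was at 3.23 to 9.2 in the cultures against 0.49 to 1.84 on the ESC arrays. Of that list Gata6 and Afp were higher in every culture than on every ESC array. Dab2 and Cubn ran higher in the cultures but overlapped, and Foxa2 overlapped. Sox17 went the other way in most cultures, at -3.05 at day 2 with 2i and A83-01 against 0.75 in unmodified EBRTcH3. Trophectoderm markers overlapped, at 5.55 to 124 against 2.5 to 82.5. An alternative added after the data were seen left out the 9 cultures in which the sum of fibroblast markers was raised. The 2 cultures with 4OHT set against the 9 ESC arrays kept 11 calls in the same direction: Phlda2, Peg10, Meg3, Snrpn, Impact, Slc38a4 and Sfmbt2 lower, and H19, Ndn, Nnat and Osbpl5 higher. Mest (0.08), Ascl2 (0.85) and Gnas (-0.43) changed sign there, and Plagl1 remained at 4.17 but did not pass (adjusted p = 0.112, limma). The part of the other cells in the remaining calls was not tested.

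**Figure D2:**
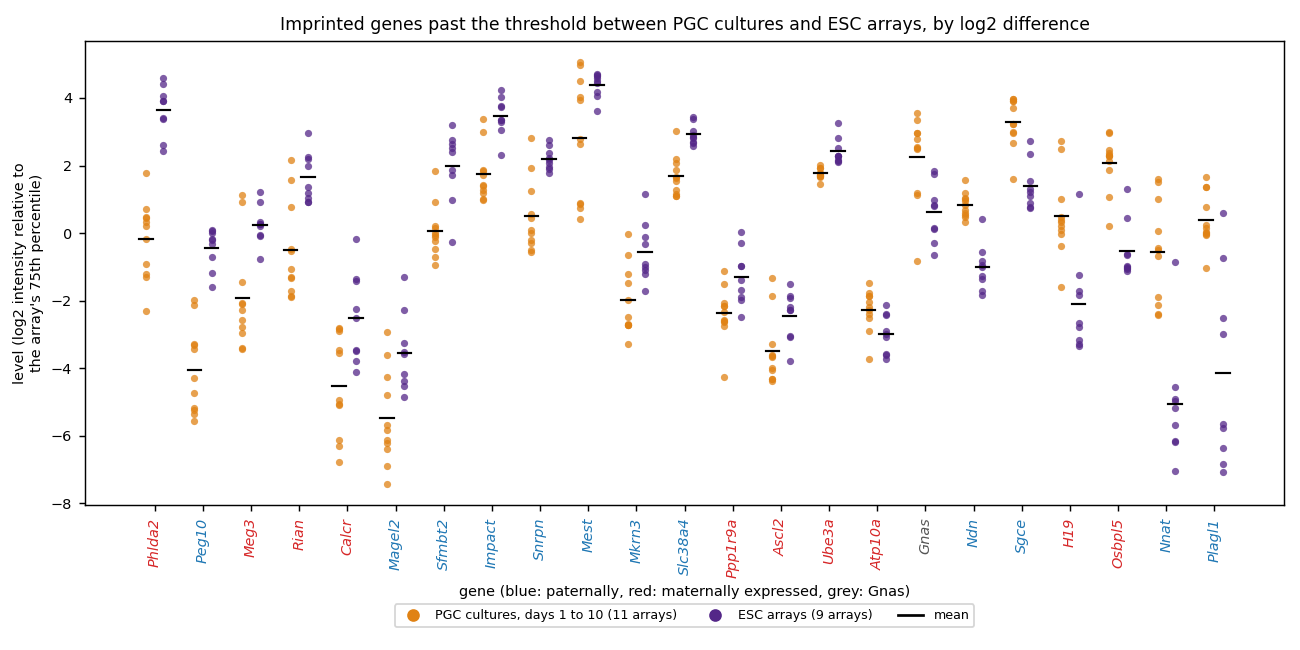
Levels (log2 intensity relative to the array's 75th percentile) of the 23 imprinted genes past the threshold, for each of the 11 PGC cultures (left of each pair) and 9 ESC arrays (right), with bars at the means, ordered by log2 difference. Phlda2 and Peg10 at the left end have every culture below every ESC array, and at the right end Plagl1 and Nnat are low on most ESC arrays.

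Along the course from PGCs, no imprinted gene passed a trend test on log2(day + 1) over the 6 arrays from uncultured PGCs to day 10, and 0 of 19043 genes did so (2347 at an unadjusted p under 0.05 by limma). Of the 37 imprinted genes tested, 10 had an unadjusted p under 0.05. Meg3 had the smallest adjusted p, with a slope of 1.54 (SE 0.29, adjusted p = 0.139, limma), and Asb4 the steepest negative slope of these 10, at -1.78 (SE 0.52, adjusted p = 0.275, limma). The steps between single arrays that follow have no replicate and no test, and a gene is counted where it differed at least 2-fold.

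From uncultured PGCs to day 1, 6 of 35 imprinted genes measured were at least 2-fold higher and 11 lower, where 48.9% of all genes were at least 2-fold apart (15.7% higher, 33.3% lower). The 2 arrays lie on different slides. Asb4 was at -1.87 at day 1 against 1.45 in PGCs, 9.99-fold lower, Phlda2 at 0.21 against 3.02, 7.04-fold lower, and H19 at 1.00 against 3.54, 5.8-fold lower. The zinc finger gene Peg3 was 6.1-fold higher at day 1, Osbpl5 5.25-fold higher and Igf2r, the receptor that clears IGF2, 4.7-fold higher. Between the same arrays fibroblast markers summed to 91.2 at day 1 against 9.71 in PGCs and trophectoderm markers to 85.9 against 19.9. In the fibroblast list Lum (-4.04 against -0.95), Thy1 and, slightly, Prrx1 were lower at day 1, and the other members higher. Blood markers summed to 0.296 against 43.8 and markers of gonadal somatic cells to 3.2 against 10.6. The trophectoderm sum followed the keratin genes Krt8 (6.17 against 4.06) and Krt7 (3.73 against 1.09), and Gata3 was also higher. Cdx2 (-4.20 against -0.38), Hand1 and Tfap2a were lower, and the median of the list was -2.61 against -1.04. The part of these markers was not tested.

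Between day 1 and day 2, on 1 slide, more imprinted genes were lower than higher at the later day. With bFGF alone, 11 of 35 were at least 2-fold lower at day 2 than at day 1 and 0 higher, where 9.09% of all genes were at least 2-fold apart (3.92% higher, 5.17% lower). Of 17 paternally expressed genes 7 were lower, and of 17 maternally expressed genes 4. Igf2 was at -0.30 at day 2 against 3.04 at day 1, 10.2-fold lower, Dlk1 at -1.92 against 0.36, 4.88-fold lower, Calcr at -5.09 against -2.82, 4.8-fold lower, and Mest at 0.89 against 2.79, 3.73-fold lower. With 2i and A83-01 as well, 7 of 36 were lower at day 2 and 2 higher, where 8.79% of all genes were at least 2-fold apart (3.81% higher, 4.98% lower), and Igf2 was 7.7-fold, Dlk1 5.94-fold and Mest 3.81-fold lower. Both comparisons share the day 1 array. From day 2 to day 3, 5 of 34 were lower and 1 higher, where 9.46% of all genes were at least 2-fold apart (3.45% higher, 6.01% lower). Phlda2 was 6.8-fold lower at day 3, and Asb4 at least 6.93-fold lower.

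Between day 3 and day 6, with the same additions and on the same slide, the largest set of imprinted genes was higher at the later day. At day 6, 17 of 36 measured were at least 2-fold higher than at day 3 and 4 lower, where 19.6% of all genes were at least 2-fold apart (12.3% higher, 7.31% lower). The counts by parental origin were unequal: 13 of 18 paternally expressed genes were higher and 1 lower, with a median log2 difference of 1.67, whereas 4 of 17 maternally expressed genes were higher and 2 lower, with a median of -0.04. The median of all 17290 genes was 0.06. This difference between the parental classes rests on 1 array a day and was not tested. Mest had a level of 5.07 at day 6 against 0.43 at day 3, 25-fold higher. H19 was at 2.50 against -1.61, 17.2-fold higher, and Dlk1 at 0.92 against -2.99, 15.1-fold higher. These were the 3 largest measured differences. Meg3 was at 1.13 at day 6 against -2.28 at day 3, higher by 3.41 on the log2 scale, and Rian at 1.58 against -1.06, 6.23-fold higher, so all 3 genes of the Dlk1-Meg3 cluster were over 2-fold higher, whichever allele they are known to be read from. Phlda2 was at 0.45 against -2.30, 6.74-fold higher, and with H19, Meg3 and Rian made up the 4 maternally expressed genes.

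The other paternally expressed genes that were higher at day 6 included Peg10, at -1.98 against -5.25 at day 3, where it was not well above background, at least 9.62-fold. Peg12, a GSK3-binding protein gene of the Snrpn cluster, was 6.04-fold higher and Snrpn 5.42-fold higher, at 1.94 against -0.50. Nap1l5, a nucleosome assembly protein gene, was at least 4.23-fold higher and Magel2 at least 3.3-fold. Igf2 was 3.62-fold, Plagl1 3.22-fold and Sfmbt2 3.13-fold higher, and Mkrn3, Impact and Slc38a4 were between 2.15-fold and 2.27-fold higher. The 3 lowest were Grb10, an adaptor that restrains insulin signalling, at 1.27 against 2.52, 2.38-fold lower, the potassium channel gene Kcnq1, at -4.63 against -3.46, 2.25-fold lower, and Gnas, at 2.49 against 3.57, 2.11-fold lower. Sgce was 2.01-fold lower and the only paternally expressed gene of the 4, and Peg3 lay just short of 2-fold, at 1.97-fold lower. Fibroblast markers summed to 77.8 at day 6 against 138 at day 3, trophectoderm markers to 20.5 against 41.2 and pluripotent markers to 100 against 40. In the fibroblast list Thy1 (2.47 at day 6 against -5.06 at day 3), Pdgfra and Lum were higher at day 6, and the other members lower. The median of the fibroblast list was 0.04 at day 6 against -0.12 at day 3. In the trophectoderm list Krt8 (3.65 against 4.90), Krt7 and Gata3 were lower at day 6. Cdx2 (-2.70 against -7.60), Hand1 and Tfap2a were higher, and the median of the list was -1.77 against -2.04. The part of these markers in the differences was not tested.

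**Figure D3:**
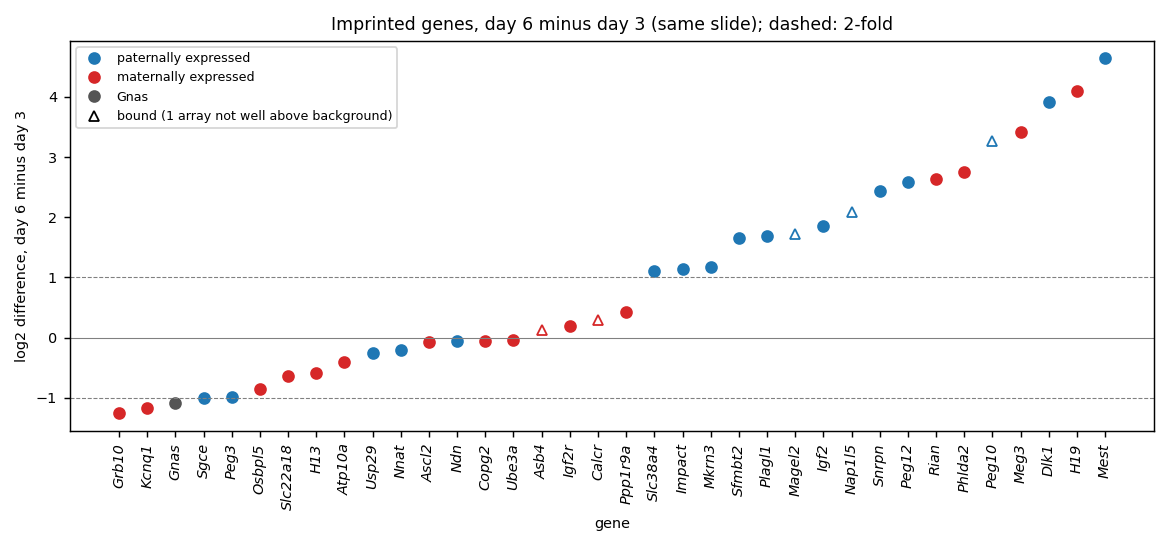
Log2 difference, day 6 minus day 3, for the 36 imprinted genes measured on at least 1 of the 2 arrays, ordered by size, with paternally expressed genes in blue, maternally expressed in red and Gnas in grey; open triangles are bounds and dashed lines mark 2-fold. Of the 17 genes above the upper line, 13 are paternally expressed.

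At day 10, set against day 6, 4 of 36 were at least 2-fold higher and 8 lower, where 17.3% of all genes were at least 2-fold apart (8.28% higher, 9.01% lower). H19 was at 0.47 at day 10 against 2.50 at day 6, 4.06-fold lower, and Osbpl5 3.85-fold lower. Dlk1 was at 2.61 against 0.92, 3.22-fold higher, and Nap1l5 2.4-fold higher. In the EGC line set against day 10, 5 of 36 were higher and 6 lower, where 12% of all genes were at least 2-fold apart (5.63% higher, 6.35% lower). Igf2 was at -3.23 in the EGC line against -0.09 at day 10, 8.84-fold lower, and Meg3 at 2.89 against 0.91, 3.96-fold higher. Rian was at -1.05 in PGCs, -1.71 at day 1, -1.33 at day 2, -1.06 at day 3, 1.58 at day 6, 2.15 at day 10 and 3.38 in the EGC line. Asb4, in the same order from PGCs to day 3, was at 1.45, -1.87, -2.55 and, not well above background, -6.08. It was then at -5.22 at day 6, -4.13 at day 10 and -3.90 in the EGC line. Mest, in the same order of arrays, was at 3.57, 2.79, 0.86, 0.43, 5.07, 4.51 and 4.51, a dip and a return.

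**Figure D4:**
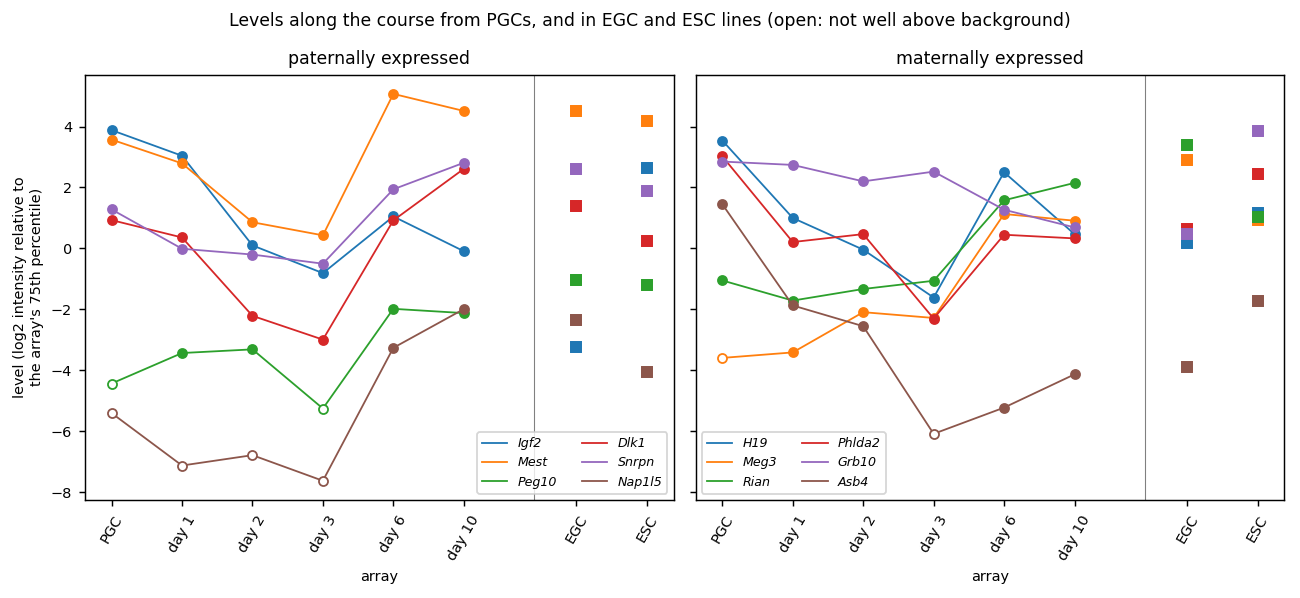
Levels (log2 intensity relative to the array's 75th percentile) of 6 paternally expressed (left panel) and 6 maternally expressed genes (right panel) along the arrays from uncultured PGCs to day 10, and in the EGC and ESC lines (squares); open points are not well above background. Mest, Dlk1 and H19 are lowest at day 3 among the arrays of the course and high at day 6, while Meg3 and Rian climb to their highest in the EGC line.

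Uncultured PGCs were next set against the 3 lines, EGC, ESC and unmodified EBRTcH3. Limma called 0 of 18955 genes (1864 at an unadjusted p under 0.05), and 7 of 36 imprinted genes tested had an unadjusted p under 0.05. Asb4 was at 1.45 in PGCs against -3.90 in the EGC line, -1.71 in the ESC line and -5.76 in EBRTcH3. The difference was 5.24 (SE 1.58, adjusted p = 0.342, limma), and its EBRTcH3 value was not well above background. H19 was at 3.54 in PGCs against 0.19, 1.17 and -1.24 in the same 3 lines, a difference of 3.5 (SE 1.1, adjusted p = 0.364). Nnat was at 0.79 in PGCs against -2.53, -0.85 and, not well above background in EBRTcH3, -5.68. Igf2 was at 3.88 in PGCs against -3.23, 2.63 and -0.56. PGCs were above every line for Asb4, H19, Nnat and Igf2. Meg3 was at -3.59 in PGCs, not well above background, against 2.89, 0.92 and 0.33 in the lines, a difference of -4.97 (SE 1.17, adjusted p = 0.241, limma). Rian was at -1.05 in PGCs against 3.38, 1.03 and 2.97, and Peg10 at -4.43 in PGCs, not well above background, against -1.02, -1.19 and -1.61. PGCs were below every line for these 3. Blood cell markers, 7 genes, summed to 43.8 in PGCs, against 5.71 in the EGC line and 1.59 to 4.82 on the ESC arrays. Of that list Hbb-y, Hba-x and Hba-a1 were higher in PGCs than in the 3 lines, and Laptm5 lower. The part of these markers in the differences was not tested. Without the ESC line, 5 imprinted genes were called (Asb4, Igf2 and Nnat higher in PGCs, Meg3 and Rian lower) among 529 genes, and without the EGC line Asb4 alone was called among 261, with 1 residual degree of freedom in each.

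The EGC line and the uncultured PGCs, at the 2 ends of the course, were at least 2-fold apart in 22 of 36 imprinted genes, 10 higher and 12 lower in EGC, where 41.1% of all genes were (18.3% higher, 22.8% lower). Igf2 was at -3.23 in the EGC line against 3.88 in PGCs, 138-fold lower, the largest measured difference of any imprinted gene between these arrays. Meg3 was at least 89.6-fold higher in the EGC line and Rian 21.5-fold higher. Asb4 was 40.6-fold lower in the EGC line, the transporter gene Slc22a18 12-fold lower, at -1.09 against 2.50, and H19 10.2-fold lower.

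The EGC line was compared with the ESC line, since both are pluripotent and only the EGC line came through the germ line. Between these 2 arrays, 4 of 36 imprinted genes were at least 2-fold higher and 9 lower in the EGC line, where 19% of all genes were at least 2-fold apart (12% higher, 7.04% lower). Igf2 was at -3.23 in the EGC line against 2.63 in the ESC line, 58-fold lower, and its other probe gave a log2 difference of -5.48. Sfmbt2 was at -0.31 against 3.20, 11.4-fold lower, and Grb10 at 0.49 against 3.84, 10.2-fold lower, with its 3 probes between -3.56 and -3.28. Rian was at 3.38 in the EGC line against 1.03 in the ESC line, 5.09-fold higher, and Meg3 at 2.89 against 0.92, 3.93-fold higher, with its 5 probes between 1.97 and 3.35. Nap1l5 was at -2.34 against -4.04, 3.26-fold higher, and Dlk1 at 1.38 against 0.23, 2.21-fold higher. The whole Dlk1-Meg3 cluster was thus higher in the EGC line than in the ESC line. Also lower in the EGC line were Asb4 (4.56-fold), Phlda2 (3.46-fold), Nnat (3.21-fold), Osbpl5 (2.64-fold), Atp10a (2.2-fold) and Slc22a18 (2.16-fold). The 2 arrays lie on different slides. Trophectoderm markers summed to 4.77 in the EGC line against 18.2 in the ESC line and extraembryonic endoderm markers to 4.43 against 0.66. In the trophectoderm list Krt8, Krt7, Cdx2 and Hand1 were lower in the EGC line, while Gata3 and Tfap2a were higher. The part of these markers was not tested. Of 17 maternally expressed genes 6 were at least 2-fold lower and 2 higher (median -0.79), and of 18 paternally expressed genes 3 were lower and 2 higher (median 0.27), beside a median of 0.16 for all genes.

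Igf2 also varied widely among the ESC arrays: it was at 3.69 with Blimp-1, 1.53 with Nanos3 and -2.46 with Dnd, and the EGC line lay below all 9. For Sfmbt2, Grb10, Asb4 and Nnat the ESC line was the brightest of the 9 ESC arrays. Grb10 was at 0.40 with Prdm14, against 0.49 in the EGC line. Sfmbt2 was at -0.25 in unmodified EBRTcH3, against -0.31 in the EGC line. The fold differences of these genes thus depend on the ESC array chosen. Against the 9 ESC arrays together, limma called 0.542% of 20283 genes and 0 of 37 imprinted genes, 8 of which had an unadjusted p under 0.05. Meg3 came closest, higher by 2.64 (SE 0.60, adjusted p = 0.112), and above all 9 ESC arrays. Phlda2 was lower by 2.99 on the log2 scale (SE 0.74, adjusted p = 0.144) and below all 9. With normexp background correction and quantile normalization Meg3 passed (2.38, adjusted p = 0.0275), and without the ESC line Phlda2 did (-3.14, adjusted p = 0.049), both by limma.

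**Figure D5:**
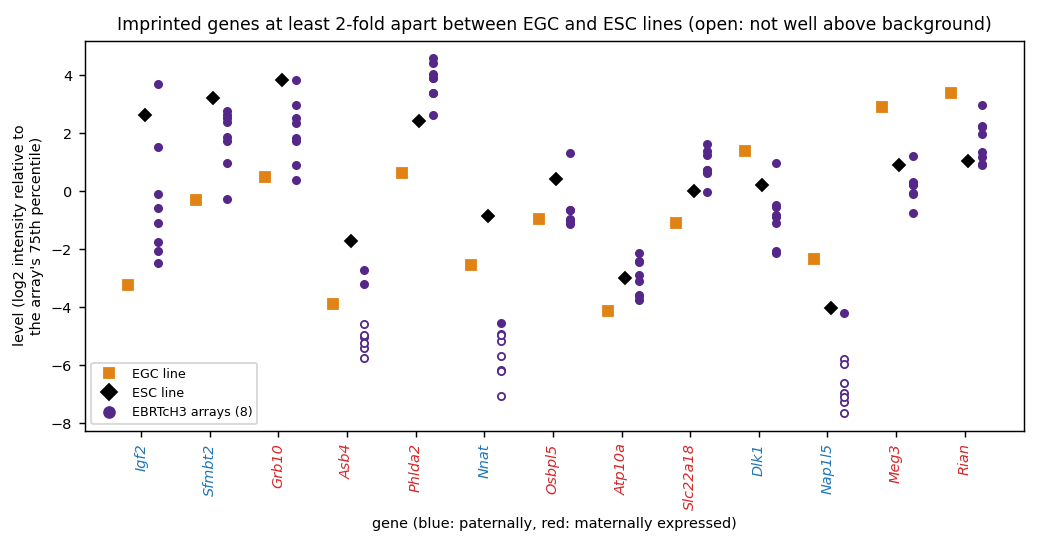
Levels (log2 intensity relative to the array's 75th percentile) of the 13 imprinted genes at least 2-fold apart between the EGC line (squares) and the ESC line (diamonds), with the 8 EBRTcH3 arrays (circles; open where not well above background). The EGC line is below all ESC arrays for Igf2 and Phlda2 and above all of them for Meg3 and Rian.

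At day 2, treatments were compared with bFGF alone, 1 array each. Mest, Nnat and Calcr were higher with the GSK3 inhibitor, with A83-01 and with 4OHT, each alone beside bFGF, and none of them with the MEK inhibitor or with 2i and A83-01 together; the comparisons share the bFGF array, which lies on another slide than the 4 single agents. Mest was at 4.02 with the GSK3 inhibitor, 2.65 with A83-01, 4.98 with 4OHT and 0.74 with the MEK inhibitor, against 0.89 with bFGF alone. Nnat was at 1.01, 0.06, 1.60 and -2.39 under the same 4 treatments, against -2.14 with bFGF alone. Calcr was at -2.85, -3.45, -2.90 and, below background, -6.77, against -5.09. The 3 single inhibitors share a slide, on which the MEK inhibitor gave the lowest value of each of these 3 genes. The culture with 2i and A83-01, which holds the GSK3 inhibitor and A83-01 together and shares a slide with bFGF alone, was not higher: Mest was at 0.86, Nnat at -2.43 and Calcr, below background, at -6.13.

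The counts of imprinted genes at least 2-fold apart from bFGF alone were 0 higher and 4 lower of 34 with the MEK inhibitor (all genes 6.37% and 3.5%, 9.87% apart), 5 higher and 1 lower of 34 with the GSK3 inhibitor (all genes 11.6% and 6.86%, 18.5% apart), 4 higher and 3 lower of 34 with A83-01 (all genes 7.02% and 5.96%, 13% apart) and 12 higher and 3 lower of 34 with 4OHT (all genes 26.4% and 11.2%, 37.6% apart). Peg10 was lower with the MEK inhibitor (at least 4.48-fold), with the GSK3 inhibitor (at least 3.29-fold) and with A83-01 (4.24-fold). Dlk1 was lower with the MEK inhibitor (2.64-fold) and with A83-01 (3.77-fold). With 4OHT, Igf2 was at 2.33 against -0.30 with bFGF alone, 6.18-fold higher, H19 6.23-fold, Ascl2 5.74-fold and Phlda2 3.79-fold higher, and Gnas 3.43-fold lower. Fibroblast markers summed to 126 with the MEK inhibitor, 42.1 with the GSK3 inhibitor, 94 with A83-01 and 7.51 or 11 with 4OHT, against 280 with bFGF alone. Not all members were lower than with bFGF alone: Lum and Prrx1 were higher with the MEK inhibitor, and Twist1 and Prrx1 with A83-01. Lum and Thy1 were higher with 4OHT as the only agent beside bFGF. Trophectoderm markers summed to 9.44 with the MEK inhibitor, 73.3 with the GSK3 inhibitor, 33.6 with A83-01 and 124 with 4OHT, against 21.1 with bFGF alone. In each sum the keratin gene Krt8 was the brightest member. With the MEK inhibitor Krt7 and Krt8 were lower than with bFGF alone, but Cdx2, Hand1 and Tfap2a higher. With the GSK3 inhibitor or 4OHT all members but Gata3 were higher. The part of either marker list in these differences was not tested.

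Adding 2i and A83-01 to bFGF, on 1 slide, left 2 of 35 imprinted genes at least 2-fold apart, where 3.91% of all genes were (2% higher, 1.91% lower): Phlda2 at 0.47 against -1.21, 3.21-fold higher, and Zim1, at least 4.7-fold higher and above background on that array alone. Adding 2i and A83-01 to 4OHT, also on 1 slide, left 3 of 33 higher and 6 lower, where 13.5% of all genes were at least 2-fold apart (8.92% higher, 4.54% lower), with H19 5.11-fold, Gnas 4.08-fold and Igf2 3.65-fold lower. Adding 4OHT to 2i and A83-01 left 10 of 34 higher and 6 lower, where 51.2% of all genes were at least 2-fold apart (36% higher, 15.2% lower). In the additive fit over the 7 day 2 arrays, with 2 residual degrees of freedom, limma called 0 of 19095 genes for each agent (617 at an unadjusted p under 0.05 for the MEK inhibitor, 880 for the GSK3 inhibitor, 703 for A83-01 and 8895 for 4OHT). The 4OHT term cannot be told apart from its slide. For the GSK3 inhibitor term, 15 of 16 paternally expressed genes were positive (median 0.45) and 13 of 18 maternally expressed genes (median 0.05), beside a median of 0.08 over all genes. No gene passed, so these are counts of estimates.

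In EBRTcH3 cells with forced germ cell genes, 0 of 37 imprinted genes passed for any construct; limma called 2 genes of 19269 with Dnd and 0 with each of the others, where between 531 and 1765 had an unadjusted p under 0.05. Prdm14 encodes a regulator of the germ line and of pluripotency. Plagl1 was at -0.75 with Prdm14 against -5.64 in unmodified EBRTcH3, not well above background, at least 6.66-fold higher. It was not well above background with Vasa either, so the rest of its slide gives only a bound, and the fit did not call it (adjusted p = 0.295, limma). Sfmbt2 was at 2.53 with Prdm14 and 1.86 with Vasa, against -0.25 in unmodified EBRTcH3, 6.87-fold and 4.32-fold higher. The other constructs lay between 0.97 and 2.77 for Sfmbt2, so the unmodified array stood below all of them. In counts, 7 of 34 imprinted genes were at least 2-fold higher and 5 lower with Prdm14 than in unmodified EBRTcH3 (all genes 12.1% and 17%, 29.1% apart), and 5 of 32 higher and 4 lower with Vasa (all genes 8.3% and 9.59%, 17.9% apart). The 2 comparisons share the unmodified array.

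Blimp-1 encodes the transcription factor that sets PGC fate. With it, 5 of 35 imprinted genes were at least 2-fold higher and 2 lower than with GFP on the same slide, where 15.8% of all genes were at least 2-fold apart (4.33% lower). Igf2 was at 3.69 with Blimp-1 against -0.10 with GFP, 13.8-fold higher, and Peg3 at 0.57 against -1.56, 4.38-fold higher. Usp29, which shares a start region with Peg3 on the opposite strand, was 2.63-fold higher and Ascl2 2.93-fold higher, while Grb10 was 2.35-fold lower. Usp29 levels come from a probe at chr7:6683435-6683494 of mm9. Its other probe, at chr7:6919806-6919865, was well above background on 0 of 22 arrays. Trophectoderm markers, 6 genes, summed to 37.1 with Blimp-1 against 4.17 with GFP, and pluripotent markers to 160 against 249; their part in these differences was not tested. With Nanos3, Osbpl5 stood above the rest of its slide by 2.14 (SE 0.39, adjusted p = 0.197, limma) and Igf2 by 3.79 (SE 1.38, adjusted p = 0.495, limma), though neither passed. The Nanos3 array stood apart in markers: trophectoderm markers summed to 82.5 with Nanos3 against 7.87 with Nanos2 and 3.61 with Dnd on its slide, and pluripotent markers to 94.1 against 301 and 273. Their part was not tested.

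Of 26 other known imprinted genes found on the array, 24 were tested between the PGC cultures and the ESC arrays. Of these 4 rose and 10 fell, where 16.1% of all genes tested were called higher and 26.9% lower. The calls in this paragraph are without slide as a random block. With that block, calls over all genes fell from 9395 to 5553. Mirg, a noncoding RNA of the Dlk1-Meg3 cluster, was lower by 2.06 on the log2 scale and Dio3, a thyroid hormone deiodinase gene at its other end, was lower by 1.88. Cdkn1c, the cell cycle inhibitor beside Phlda2, was lower by 1.90, and Zdbf2 by 2.45. Mirg, Dio3 and Zdbf2 lay within the range of the ESC arrays at days 6 and 10, and Cdkn1c at day 1. Airn, the noncoding RNA that silences Igf2r on the paternal allele, was called higher (adjusted p = 0.000598, limma), but it was well above background on only 9 of 22 arrays and the size of its difference rests on dim ESC arrays. The enzyme gene Pon3, a neighbour of Sgce, was higher by 2.04 and Pon2 by 1.25. Of 17 genes that set, keep or remove imprints, 1 rose and 11 fell (median -1.10, beside -0.34 over all genes), against the same shares of all genes. Dnmt3l, cofactor of the de novo methyltransferases, was lower by 6.05 (SE 0.92, adjusted p = 2.65e-05, limma) and Dnmt3b by 3.61, and of the keepers of imprints Zfp57 was lower by 2.35, Trim28 by 1.41 and Uhrf1 by 1.10. These genes were not low in all cultures. Dnmt3l was at 4.80 at day 6 and 5.03 at day 10, against 4.77 in the ESC line. Dnmt3b, Zfp57 and Uhrf1 also lay within the range of the ESC arrays on both days, and Trim28 at day 10. The hydroxylase gene Tet3 was higher by 1.01 and Tet1 lower by 1.34. Dnmt1, the maintenance methyltransferase, did not pass, at -0.21 (SE 0.34, adjusted p = 0.639, limma).

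Neighbours within a cluster were described by their correlation over arrays. Igf2 and H19 correlated at r = 0.74 among the 11 cultures and 0.31 among the 9 ESC arrays. Mest and Copg2, which overlap at their ends on opposite strands, correlated at r = -0.51 and 0.20. The Copg2 probe used lies at chr6:30698491-30698550 of mm9, close to the Mest probe at chr6:30698279-30698338 on the other strand, and the third Copg2 probe, at chr6:30840605-30840664 correlated with it at r = 0.16 over the 22 arrays. By Pearson's r over all 22 arrays and 16001 genes, those most like Plagl1 were Serpinf1 (0.917), Xlr5a (0.900), Rhox2a (0.894), Usp53 (0.893) and Fbxo36 (0.886). Those most like Asb4 were Epha7 (0.786), Fgfr3 and Xylb (0.774 each), Cthrc1 (0.758) and Dach1 (0.757).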

How the data were processed

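RNA from 22 samples was hybridised to Agilent mouse arrays with 1 colour, 1 array a sample. The intensities are those the authors deposited, read with Agilent Feature Extraction 10.7.3.1 per the file headers, background-subtracted within the array but not normalized between arrays; the deposited background flags come from the same software. Here each array was scaled to its 75th percentile and put on the log2 scale. Spots flagged as outliers were dropped, spots of 1 probe were averaged, and a gene was read from its probe of highest mean level. Genes were tested if well above background on at least 1 array of a fit, with limma 3.58.1 in R 4.3.3 and Benjamini-Hochberg adjustment at 0.05 (Python 3.11.15 for the rest). Gene names were updated through RefSeq (27027 probes by accession, 5011 by symbol, 796 by an older symbol), while 8340 stayed under their deposited name. A gene not well above background on 1 side has only a bound, set by the dimmest probe well above background on that array or by its own level, whichever is higher.

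Each group is 1 array, so p-values measure only the spread between the arrays of a fit, which may be technical, and the number of arrays limits the precision. The constructs were fitted over the 8 EBRTcH3 arrays with slide as a block, which left 4 residual degrees of freedom. Members, gene lists and tests were chosen with earlier results of these data known. Array values are given for genes past a threshold, for the 8 of widest range, and for the 3 highest and 3 lowest between day 6 and day 3, EGC and ESC, and PGCs and lines; other members are given by ranges and counts. Alternatives were the deposited value table, normexp background correction, quantile normalization, no filter, the mean over probes, slide as a block and arrays left out. The fits were tested on simulated data.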

Additional observations from a re-analysis of the deposited data

Results flagged for a closer look

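H19 had a level of 1.17 on the SSEA-1-sorted ESC line, and the other 8 ESC arrays, all EBRTcH3 cells, lay between -3.34 and -1.24. Its distance from the nearest of them was large for the range of the group by Dixon's criterion. The criterion was applied to 30 imprinted genes over the 9 ESC arrays, and chance alone flags about 5% of such groups. Without the ESC line H19 remained higher in the PGC cultures than on the ESC arrays.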

How the results depend on the processing

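No paired analysis was possible because each group has 1 array and the labels give no replicate numbers. The random block for slide could not be fitted for 4OHT. Of the 23 genes called between PGC cultures and ESC arrays, 20 to 23 kept their call and direction in each of the alternatives of scaling, background, filter, probe and value table, and 23 did so without the ESC line. The cause of the shifts that follow was not tested.

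Between cultures and ESC arrays, slide as a random block left 15 imprinted genes of 5553 genes called, leaving out the 6 forced gene arrays 9 of 3804, and leaving out the 9 cultures with raised fibroblast markers, chosen after seeing the data, 11 of 4779. Signs turned without the forced gene arrays for Igf2 (-0.24), Nap1l5 (-0.32), Kcnq1 (-0.01) and Asb4 (-0.24). Without the 9 cultures they turned for Peg3 (-0.04), Mest (0.08), Igf2r (-0.35), Usp29 (0.84), Gnas (-0.43), Ascl2 (0.85), Slc22a18 (0.02) and Rasgrf1 (1.84). Normexp turned Zim1 (0.06), Grb10 (0.04) and Copg2 (0.00), and quantile normalization Zim1 (0.26), Grb10 (0.12) and Copg2 (0.06). Grb10 also turned without the ESC line (0.07) and without days 6 and 10 (0.13), Nap1l5 without days 6 and 10 (-0.53), and Kcnq1 without the ESC line (-0.04), without the dimmest arrays (-0.04) and without the 2 arrays with 4OHT (-0.23), the last also chosen after seeing the data. Of these, Mest, Gnas and Ascl2 were called.

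The time trend called 41 genes with no filter and 15 with quantile normalization. PGCs against lines called 17 genes with normexp, 81 with no filter and 0 to 529 leaving out 1 line (imprinted genes 0 to 5). EGC against ESC arrays called 1 imprinted gene with normexp (271 genes) and 1 without the ESC line (244 genes), and 213 genes with quantile normalization and 0 without the forced gene arrays. With slide in place of the 4OHT term, on 1 residual degree of freedom, the MEK inhibitor had 4 imprinted genes (Calcr, Mest, Nnat, Ppp1r9a) of 763, the GSK3 inhibitor 2 (Mest, Nnat) of 702, and A83-01 had 653 genes. 4OHT had 13 imprinted genes of 5147 with normexp, 18 of 15748 with no filter and 6 of 4088 with the mean over probes. With quantile normalization Prdm14 had 2 imprinted genes of 61 (Plagl1 and Nap1l5, both not well above background on the rest of its slide, so that these calls are against background), and Vasa 23, Nanos2 57, Nanos3 16, Dnd 105 and Blimp-1 178 genes. Normexp gave Nanos2 11, Nanos3 5, Dnd 49 and Blimp-1 1, and no filter gave Dnd 4.

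Imprinted genes at least 2-fold apart fell to fewer with normexp: 7 between day 2 with bFGF and day 1, 5 between day 2 with 2i and A83-01 and day 1, 3 between day 3 and day 2, 7 between day 10 and day 6, 6 between EGC and day 10, 0 for the MEK inhibitor, 2 for the GSK3 inhibitor, 2 for A83-01, 9 for 4OHT, 1 for 2i with A83-01, 2 for Vasa and 4 for Blimp-1. With no filter there were 14 for 2i and A83-01 added to 4OHT, 26 for 4OHT added to 2i and A83-01, and 11 for Blimp-1. Dim genes (Zim1, Rasgrf1, Nap1l5, Magel2) limit what can be said, since their signal is near background on most arrays.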
